A study of Homo sapiens with 36 samples.

Results

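The genes described here lie at genomic loci associated with restless legs syndrome, a sensorimotor disorder with an urge to move the legs. They were chosen by symbol as *BTBD9*, *PTPRD*, *MAP2K5*, *SKOR1*, *TOX3*, *CRBN*, *MDGA1*, *NTNG1* and *DACH1*, and all 9 were found among the 28516 gene symbols counted. *MEIS1* and its paralog *MEIS2*, both themselves at such loci, were the genes manipulated, and their levels are given only as a check. Cultured human neural stem cells (hNSC), a commercial line, received lentivirus for knockout (KO) with CRISPR/Cas9 or for overexpression (OE) with CRISPR activation, and RNA was sequenced 48 h later. The question addressed was whether the level of *MEIS1* or *MEIS2* changed the RNA level of the other genes at these loci.

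All 6 conditions held 6 libraries of the same cell line. Cells labelled CRISPRa_MEIS1 (MEIS1-OE), CRISPRa_MEIS2 (MEIS2-OE) and CRISPRa_ctrl (ctrl-OE) carried a catalytically dead Cas9 fused to an activator, a second activator recruited by the guide, and a guide for *MEIS1*, for *MEIS2* or without a target. Cells labelled CRISPR-KO_MEIS1 (MEIS1-KO) and CRISPR-KO_MEIS2 (MEIS2-KO) carried active Cas9 with 2 guides mixed at equal parts, and CRISPR-KO_ctrl (ctrl-KO) carried active Cas9 with a non-targeting guide. The populations were mixed rather than clonal, and virus was applied by the dish, but whether the 6 libraries of a condition came from independent infections is not spelled out in the sources used here. The p-values therefore measure the spread between these libraries, part of which may be technical.

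MEIS proteins are homeodomain transcription factors that bind DNA and act in limb, blood and nervous system development. The genes at the other loci fall into different roles. *PTPRD*, *NTNG1* and *MDGA1* encode cell surface proteins of axon guidance and synapse formation, *DACH1*, *TOX3* and *SKOR1* encode nuclear regulators of transcription, *MAP2K5* encodes the kinase that activates ERK5, and *BTBD9* and *CRBN* encode substrate adaptors of cullin ubiquitin ligases. A gene near an associated locus is a candidate by position, and its symbol says nothing about which gene a variant acts on.

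The MEIS core motif is TGACAG, read as CTGTCA on the opposite strand. The RefSeq windows from 250 bases before to 50 bases after the annotated start (GRCh38.p14) were searched on both strands for these 6 letters. Windows were found for 8 of the 9 genes, 15 in all, with none for *TOX3*. The letters occurred in 5 of the 15 windows and in 4 of the 8 genes, against 15.8% of 35116 windows and 18.6% of 27305 genes genome-wide. The window of *NTNG1* that holds the letters (1 of its 3, chr1:107140789-107141088, + strand), the window of *DACH1* (chr13:71867155-71867454, − strand) and that of *MDGA1* (chr6:37697834-37698133, − strand), which lacks them, are shown 5′ to 3′ because these 3 genes changed most with MEIS1-OE, with the letters in capitals.
NTNG1: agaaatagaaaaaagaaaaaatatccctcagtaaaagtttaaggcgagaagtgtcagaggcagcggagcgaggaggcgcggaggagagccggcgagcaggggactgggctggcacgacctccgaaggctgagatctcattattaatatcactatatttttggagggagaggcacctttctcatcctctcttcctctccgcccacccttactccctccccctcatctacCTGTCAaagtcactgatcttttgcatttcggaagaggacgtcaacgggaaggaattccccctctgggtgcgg
DACH1: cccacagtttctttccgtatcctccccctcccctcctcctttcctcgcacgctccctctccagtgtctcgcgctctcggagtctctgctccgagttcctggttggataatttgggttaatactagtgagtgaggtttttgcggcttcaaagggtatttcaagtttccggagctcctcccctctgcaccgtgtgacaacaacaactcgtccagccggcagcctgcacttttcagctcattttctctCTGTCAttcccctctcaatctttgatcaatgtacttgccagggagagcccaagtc
MDGA1: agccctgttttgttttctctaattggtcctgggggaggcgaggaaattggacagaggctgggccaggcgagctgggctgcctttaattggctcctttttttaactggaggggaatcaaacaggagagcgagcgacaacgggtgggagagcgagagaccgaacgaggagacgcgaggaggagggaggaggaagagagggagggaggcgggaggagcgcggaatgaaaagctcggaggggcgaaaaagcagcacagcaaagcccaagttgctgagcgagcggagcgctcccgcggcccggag
The match began 22 bases before the start in *NTNG1* and 5 bases before it in *DACH1*, both on the opposite strand of the gene. The windows of *PTPRD* held it in 2 of 3 and those of *BTBD9* in 1 of 2. A match of 6 letters is a description of the sequence and not a binding site, and a window without it says nothing of MEIS binding elsewhere.

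The 4 knockout guides were compared with the genome (GRCh37) over each gene and 5 kb on either side, allowing up to 4 mismatches before an NGG. Of the 9 genes, 7 had no such site. *BTBD9* and *NTNG1* had 1 each, both with 4 mismatches and both for a *MEIS2* guide. The guides and sites are shown with mismatched bases in capitals, and with the last 3 bases of each site as its PAM.
MEIS2-g2: cccactcagcaggcacccca
BTBD9 site: cccaGtcagAaggcCccTcaggg
MEIS2-g5: gttctgatgtcaggatacca
NTNG1 site: CttctgTtgtAagAataccaagg
The *BTBD9* site (chr6:38140263-38140285, + strand) lay in the non-coding part of an exon and differed by C5G, C10A, A15C and C18T, with positions counted from 1 at the 5′ end of the guide. The *NTNG1* site (chr1:107679356-107679378, − strand) lay 3273 bp before the start of the gene and differed by G1C, A7T, C11A and G14A. Cutting at these sites was not measured.

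Libraries held 15429985 to 22940493 counts. In CPM, the count of a gene scaled by library size, *MEIS1* was at 286.8 to 323 in MEIS1-OE and 15.7 to 18.8 in ctrl-OE, and at 6.43 to 11.2 in MEIS1-KO and 23.7 to 28.0 in ctrl-KO. *MEIS2* was at 793 to 852 in MEIS2-OE and 20.5 to 24.1 in ctrl-OE, and at 10.5 to 13.4 in MEIS2-KO and 23.5 to 27.4 in ctrl-KO. For protein, the study found a fall of MEIS1 after KO hard to detect, given its low base level. An effect of MEIS2-KO on protein could not be detected with its antibodies. All 10 neural stem cell markers were detected, with a summed level of 3059 to 6240.2 CPM per library, mostly from *VIM* and *NES*. Of 8 neuron markers 7 had enough counts to be tested, led by *MAP2* and *TUBB3*, while *RBFOX3* had 7 counts in all, and markers of astrocytes (1.93 to 6.19 CPM summed) and microglia (0.682 to 2.36 CPM summed) were near 0, with *GJB6* and *P2RY12* at 0 in every library. Oligodendrocyte lineage markers summed to 170.9 to 226 CPM, mostly from *CNP*, while *MOG* had 10 counts in all. Mesenchymal and endothelial markers summed to 121 to 239 CPM, mostly from *PDGFRB* and *COL1A1*, and both pluripotent cell markers together reached at most 0.372 CPM.

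Levels differed widely among the genes. Per kilobase of merged exon, mean levels over the 36 libraries were 14.5 CPM for *PTPRD*, 8.66 for *TOX3*, 5.33 for *CRBN*, 3.36 for *MAP2K5*, 2.93 for *BTBD9*, 1.45 for *DACH1*, 0.197 for *MDGA1*, 0.143 for *NTNG1* and 0.0517 for *SKOR1*. *PTPRD* was above *TOX3*, *CRBN* above *MAP2K5* and *DACH1* above *MDGA1* in 36 of 36 libraries. *BTBD9* was above *DACH1* in 34, *NTNG1* above *SKOR1* in 33 and *TOX3* above *CRBN* in 31 of the 36. The neighbours *MAP2K5* and *BTBD9*, and *MDGA1* and *NTNG1*, kept their order in 25 and 26 of 36 libraries, so within each of these pairs the levels overlapped. *SKOR1*, a corepressor of the SKI family known from interneurons of the dorsal spinal cord, had 1 to 10 counts per library, which limits every statement about it.

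**Figure D1:**
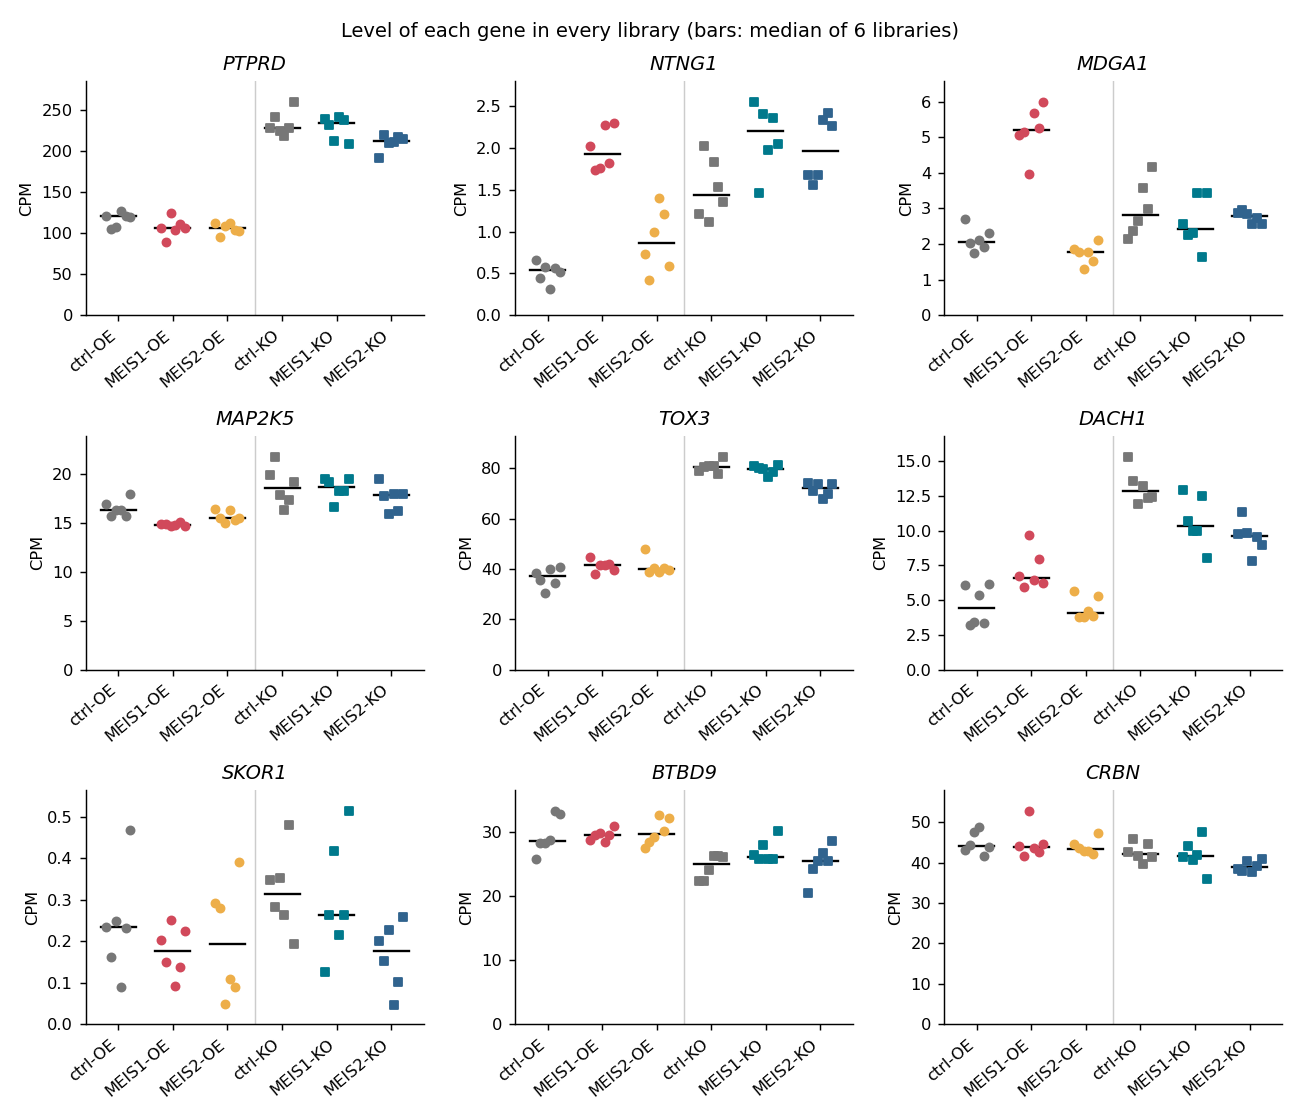
Level of each gene in CPM (linear axis from 0) in every library, with circles for the 3 OE conditions, squares for the 3 KO conditions and a bar at the median of 6 libraries. The 6 MEIS1-OE libraries of *NTNG1* (1.74 to 2.30 CPM) and *MDGA1* (3.98 to 5.99 CPM) lie above all ctrl-OE libraries, and *PTPRD*, *TOX3*, *DACH1* and *NTNG1* lie lower in ctrl-OE than in ctrl-KO.

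With MEIS1-OE, *NTNG1*, *MDGA1*, *DACH1* and *TOX3* rose, and no gene of the 9 fell. The first 3 rose by 3.87-fold, 2.44-fold and 1.56-fold, *TOX3* by 1.13-fold. These 4 of 9 called genes (adjusted p under 0.05) compare with 9.10% of the 19689 tested genes called and 5.52% called higher, and the 3 that also passed an absolute log2 fold change of 0.58 compare with 2.24% of all genes called higher past that size. At an unadjusted p under 0.05 there were 6 of 9, beside 20.1% of all genes. The median log2 fold change was -0.0015 over the 9 genes and -0.0013 over all genes. *MDGA1*, *NTNG1* and *DACH1* had been singled out by the study from these same libraries, so their calls are not independent evidence. The study also reported MEIS binding sites near each of them by chromatin immunoprecipitation, which were not examined here.

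*NTNG1* encodes netrin-G1, a membrane-anchored adhesion protein of axons that binds a netrin-G ligand across the synapse (GRCh37, chr1:107682629-108027545, + strand). It was at 0.313, 0.537 and 0.655 CPM (lowest, median and highest) in ctrl-OE and at 1.74, 1.92 and 2.30 CPM in MEIS1-OE, which are 7 to 14 and 35 to 51 counts per library. All 6 MEIS1-OE libraries were above all ctrl-OE libraries. The share of all tested genes that separate in this way in MEIS1-OE was not counted. The log2 fold change was 1.95 (SE 0.21, 95% interval 1.52 to 2.38, edgeR quasi-likelihood test with Benjamini-Hochberg adjustment, adjusted p = 5.11e-09).

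*MDGA1* encodes a membrane-anchored immunoglobulin protein that binds neuroligins and keeps them from neurexins (chr6:37598455-37667082, − strand). It was at 1.74, 2.06 and 2.71 CPM in ctrl-OE and at 3.98, 5.22 and 5.99 CPM in MEIS1-OE. Again the groups did not overlap. This was a log2 fold change of 1.29 (SE 0.14, 95% interval 0.999 to 1.58, edgeR adjusted p = 9.01e-09). How many of all tested genes separate without overlap was not counted.

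*DACH1* encodes a nuclear factor of the retinal determination network, which works with proteins of the EYA family (chr13:72012098-72441342, − strand). It was at 3.23, 4.41 and 6.14 CPM in ctrl-OE and at 5.95, 6.60 and 9.66 CPM in MEIS1-OE, and 5 of the 6 MEIS1-OE libraries were above all ctrl-OE libraries. It rose by a log2 fold change of 0.65 (SE 0.15, 95% interval 0.34 to 0.95, edgeR adjusted p = 0.00271). Its ctrl-OE libraries were spread, with 3 at 3.23 to 3.45 CPM and 3 at 5.37 to 6.14 CPM.

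*TOX3* encodes a high mobility group box protein that acts on transcription in neurons (chr16:52470329-52581714, − strand). It was at 30.3, 37.03 and 40.9 CPM in ctrl-OE and at 38.1, 41.7 and 44.9 CPM in MEIS1-OE, where 4 of 6 libraries were above all controls. The log2 fold change was 0.18 (SE 0.054, edgeR adjusted p = 0.0332), and the call was lost in 6 of 12 alternative analyses, with adjusted p from 0.0138 to 0.178.

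The other 5 genes did not pass the test in MEIS1-OE. *MAP2K5* was at 15.6, 16.3 and 17.9 CPM in ctrl-OE and at 14.6, 14.8 and 15.1 CPM in MEIS1-OE. Its groups did not overlap, with all MEIS1-OE libraries lower, yet the log2 fold change of -0.15 (SE 0.059) had an edgeR adjusted p of 0.109. How many of all tested genes separate in this way was not counted. *PTPRD*, a receptor tyrosine phosphatase that organizes synapses (chr9:8314246-10613002, − strand), was at 105, 120.3 and 127 CPM in ctrl-OE and at 88.9, 106 and 124 CPM in MEIS1-OE. Its log2 fold change was -0.13 (SE 0.059, edgeR adjusted p = 0.187), and without the 6 libraries numbered 3 it was -0.20 with an adjusted p of 0.0230. *BTBD9*, *CRBN* and *SKOR1* had log2 fold changes of -0.0030, -0.0015 and -0.42, with 95% intervals of -0.14 to 0.13, -0.11 to 0.11 and -1.25 to 0.40. In the same comparison 2 of the 10 neural stem cell markers fell, *SOX1* (log2 fold change -0.31) and *PROM1* (-0.16), but the median over the 10 was 0.0079. Their summed level was 3128, 3329 and 4058 CPM in ctrl-OE and 3432, 3801 and 4366 CPM in MEIS1-OE, so the ranges overlapped. Most of this sum came from *VIM* and *NES*. The neuron marker *SYT1* (0.26) and the pericyte and mesenchymal marker *PDGFRB* (0.30) rose, 1 of 7 and 1 of 5 on their lists. The neuron list ran from -1.01 to 0.55, with a median of -0.14. The mesenchymal and endothelial list ran from -0.10 to 0.30, with a median of 0.10. The part of these markers in the results above was not tested. In bulk RNA, fewer cells of one type and less RNA per cell cannot be told apart.

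With MEIS1-KO, none of the 9 genes passed the test, by edgeR or by DESeq2. The share of all tested genes called was 1.46%. At an unadjusted p under 0.05 there were 2 of the 9, *NTNG1* and *DACH1*, beside 11.6% of all genes. *NTNG1* was at 1.12, 1.44 and 2.02 CPM in ctrl-KO and at 1.47, 2.21 and 2.55 CPM in MEIS1-KO, with 4 of 6 KO libraries above all controls. The log2 fold change was 0.49 (SE 0.18, edgeR adjusted p = 0.218), and without the 6 libraries numbered 2 it was 0.67 with an adjusted p of 0.0438. *DACH1* was at 11.9, 12.8 and 15.3 CPM in ctrl-KO and at 8.06, 10.4 and 12.9 CPM in MEIS1-KO, with 4 of 6 KO libraries below all controls. The log2 fold change was -0.30 (SE 0.14, edgeR adjusted p = 0.367). *MDGA1* was at 2.14, 2.81 and 4.15 CPM in ctrl-KO and at 1.63, 2.42 and 3.44 CPM in MEIS1-KO, and these ranges overlapped (log2 fold change -0.20, SE 0.15, edgeR adjusted p = 0.694). The log2 fold changes of the other 6 genes lay between -0.069 (*SKOR1*) and 0.13 (*BTBD9*). *PAX6* (log2 fold change -0.42) and *VIM* (0.25) passed the test in this comparison, 2 of 10 neural stem cell markers with a median of -0.13. None of the 7 tested neuron markers passed. Among 5 mesenchymal and endothelial markers 1 passed, *COL1A1* (0.82). That list summed to 121, 139 and 154 CPM in ctrl-KO and to 145, 169 and 239 CPM in MEIS1-KO.

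**Figure D2:**
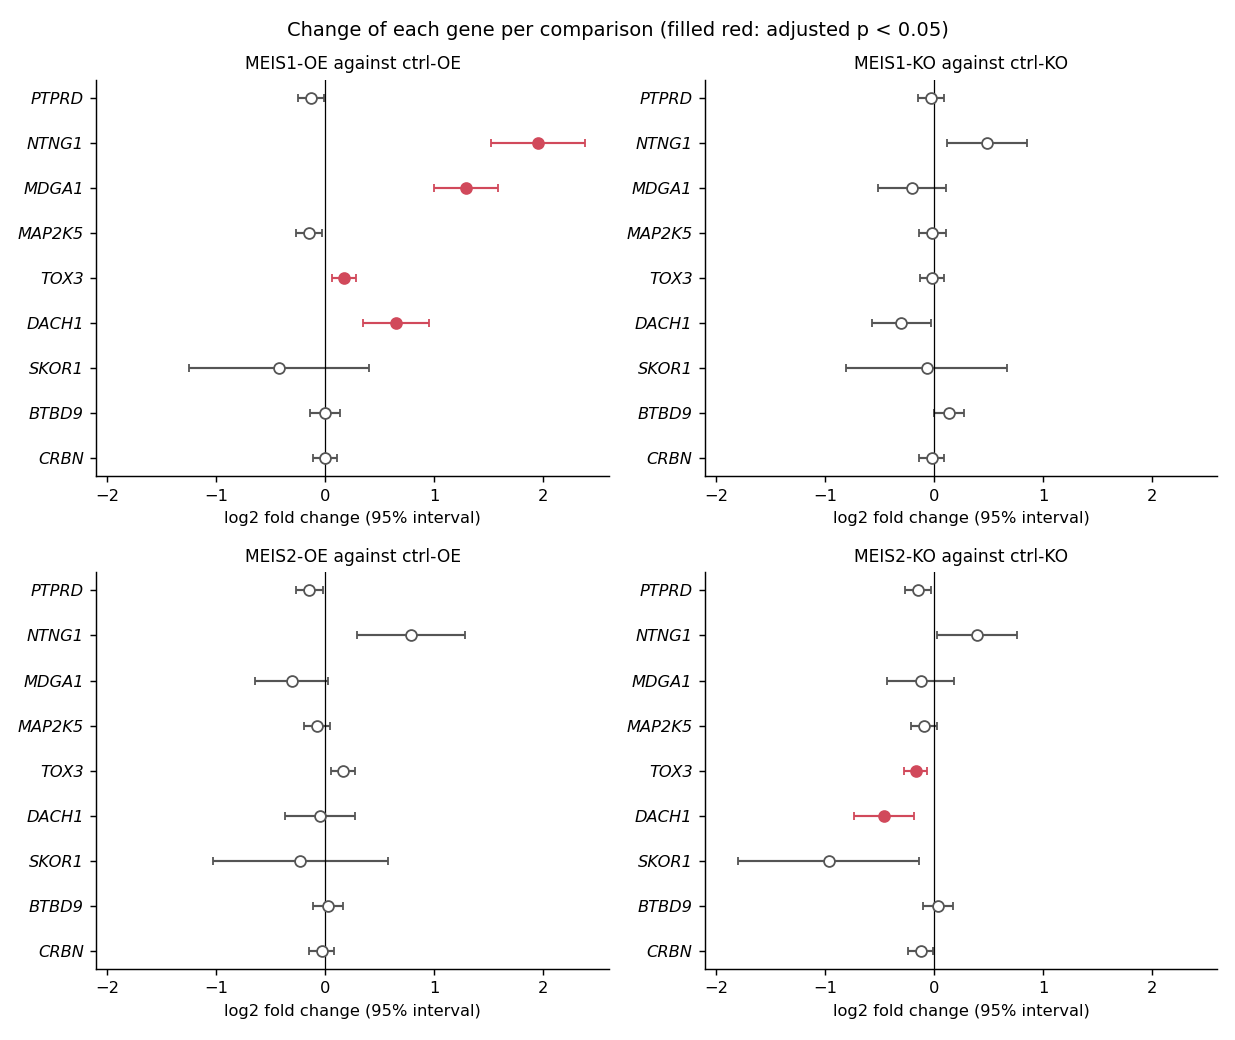
Log2 fold change of each gene with its 95% interval (horizontal axis, log2 units) in the 4 comparisons with the matching control, with filled red points for an adjusted p under 0.05. In MEIS1-OE *NTNG1* (1.95), *MDGA1* (1.29), *DACH1* (0.65) and *TOX3* (0.18) are filled, in MEIS2-KO *DACH1* (-0.46) and *TOX3* (-0.17), and none in the other panels.

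The effects of overexpression and knockout were then set against each other. The MEIS1 contrast, the OE effect minus the KO effect, was higher than 0 for *MDGA1*, *NTNG1* and *DACH1*. These 3 of 9 calls compare with 3.48% of all genes called, 2.35% called higher and 1.08% called higher past 0.58. All 3 kept the call in 12 of 12 alternative analyses. The study had named these 3 genes by this same contrast in these libraries, out of a longer list of candidates. The count was therefore set by the choice of genes and is not independent evidence. *MDGA1* had a contrast of 1.49 (SE 0.21, edgeR adjusted p = 5.65e-06), *NTNG1* of 1.46 (SE 0.28, adjusted p = 8.91e-04) and *DACH1* of 0.94 (SE 0.20, adjusted p = 0.00276). For *MDGA1* and *DACH1* the estimates for OE and KO had opposite signs, whereas both were above 0 for *NTNG1*. In each of the 3, the OE effect had passed its own test and the KO effect had not. *TOX3* had a MEIS1 contrast of 0.20 (SE 0.076, edgeR adjusted p = 0.194).

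**Figure D3:**
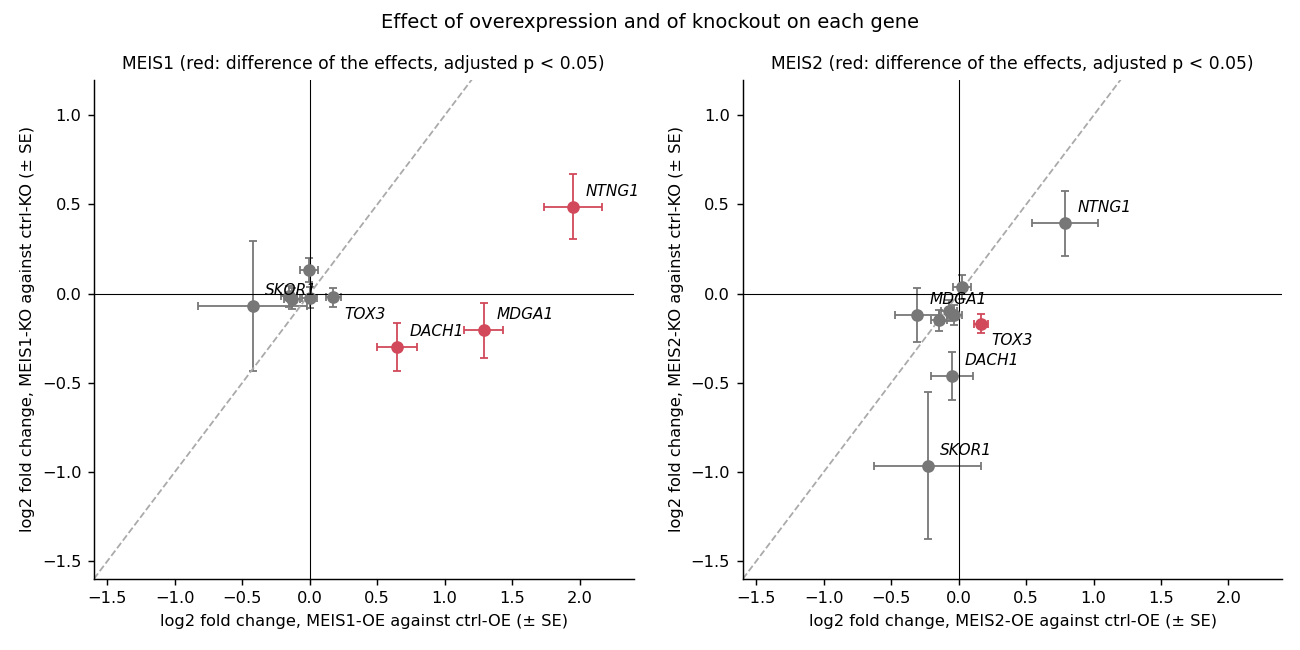
Log2 fold change in OE (horizontal) against that in KO (vertical) for each gene, with bars of 1 SE, for MEIS1 on the left and MEIS2 on the right, with a dashed line where both are equal. Red marks an adjusted p under 0.05 for the difference of the effects. For MEIS1, *NTNG1* (1.95 and 0.49), *MDGA1* (1.29 and -0.20) and *DACH1* (0.65 and -0.30) lie to the right of the line, and for MEIS2 *TOX3* (0.17 and -0.17) is red.

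With MEIS2-OE, none of the 9 genes passed the test by edgeR or DESeq2, where 1.35% of all genes were called. At an unadjusted p under 0.05 there were 3 of 9, beside 7.64% of all genes. *NTNG1* was at 0.418, 0.866 and 1.40 CPM, and 4 of 6 libraries were above the highest ctrl-OE library (0.655 CPM). Its log2 fold change was 0.79 (SE 0.24, edgeR adjusted p = 0.142), and without the 6 libraries numbered 2 it was 0.90 with an adjusted p of 0.0462. *TOX3* was at 38.9, 40.1 and 47.8 CPM (log2 fold change 0.17, SE 0.054, edgeR adjusted p = 0.196). *PTPRD* was at 94.6, 106 and 113 CPM (log2 fold change -0.15, SE 0.059, edgeR adjusted p = 0.449). *MDGA1* was at 1.29, 1.77 and 2.10 CPM and *DACH1* at 3.77, 4.07 and 5.65 CPM, with log2 fold changes of -0.31 (SE 0.17, edgeR adjusted p = 0.725) and -0.049 (SE 0.16, adjusted p = 0.990).

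MEIS1-OE and MEIS2-OE were compared directly, since both had been set against the same ctrl-OE libraries. *MDGA1*, *NTNG1* and *DACH1* were higher in MEIS1-OE, 3 of 9 genes against 7.75% of all genes called, 4.93% called higher and 2.03% called higher past 0.58. In each of the 3 all MEIS1-OE libraries were above all MEIS2-OE libraries. The share of all genes that separate in this way was not counted, and the study had named these genes from the same libraries. The log2 differences were 1.60 for *MDGA1* (SE 0.15, edgeR adjusted p = 1.26e-10), 1.16 for *NTNG1* (SE 0.19, adjusted p = 3.59e-05) and 0.69 for *DACH1* (SE 0.15, adjusted p = 0.00147). *TOX3* differed by 0.010 with a 95% interval of -0.10 to 0.12. Between MEIS1-KO and MEIS2-KO none of the 9 genes passed the test by edgeR or DESeq2, where 0.0152% of all genes were called, and 3 had an unadjusted p under 0.05, beside 5.68% of all genes. The smallest of these was that of *TOX3*, whose 6 MEIS1-KO libraries (76.4, 79.9 and 81.3 CPM) were above all 6 MEIS2-KO libraries (log2 difference 0.15, SE 0.053, edgeR adjusted p = 0.855). Here too the share of all genes that separate was not counted.

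With MEIS2-KO, *DACH1* and *TOX3* fell and no gene of the 9 rose. These 2 calls compare with 10.0% of all genes called and 5.98% called lower, and neither passed the size of 0.58. *DACH1* was at 7.82, 9.65 and 11.4 CPM in MEIS2-KO against 11.9, 12.8 and 15.3 CPM in ctrl-KO, with no overlap. Its change was -0.46 on the log2 scale (SE 0.14, edgeR adjusted p = 0.0242). The call was lost without the libraries numbered 1, 4 or 5, with adjusted p of 0.0784, 0.117 and 0.0629. *TOX3* was at 68.0, 72.3 and 74.2 CPM against 77.9, 80.7 and 84.6 CPM, again with no overlap. Its log2 fold change was -0.17 (SE 0.053, edgeR adjusted p = 0.0336), and the call was lost in 5 of 12 alternative analyses, with adjusted p from 0.0167 to 0.129. The share of all tested genes without overlap between MEIS2-KO and ctrl-KO was not counted.

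Of the other 7 genes in MEIS2-KO, *PTPRD*, *SKOR1*, *NTNG1* and *CRBN* had an unadjusted p under 0.05, which 23.2% of all genes had. *PTPRD* was at 191, 212 and 219 CPM against 219, 228 and 259 CPM, with 5 of 6 KO libraries below all controls (log2 fold change -0.15, SE 0.058, edgeR adjusted p = 0.0984). *CRBN*, the substrate receptor of the CRL4 ligase and the target of thalidomide drugs, was at 37.6, 38.8 and 40.9 CPM against 39.5, 42.0 and 45.9 CPM (log2 fold change -0.12, SE 0.056, edgeR adjusted p = 0.181). Its last exons overlap those of *TRNT1* on the opposite strand, and the strand setting of the counting is not given in the sources used here. *NTNG1* was at 1.56, 1.97 and 2.42 CPM (log2 fold change 0.40, SE 0.18, edgeR adjusted p = 0.178). *SKOR1* summed to 19 counts over 6 libraries against 36 (log2 fold change -0.96, SE 0.41, edgeR adjusted p = 0.138). In the same comparison 4 of 10 neural stem cell markers fell and 1 rose. *PAX6* had a log2 fold change of -0.52, *FABP7* of -0.36, *SOX1* of -0.33, *PROM1* of -0.16 and *VIM* of 0.33. *DCX*, a marker of young neurons, had -0.997, from a mean of 0.894 CPM in ctrl-KO to 0.453 CPM in MEIS2-KO. Of the 7 tested neuron markers 1 passed the test, lower. That list ran from -0.997 to 0.31, with a median of -0.0455. Of the 5 mesenchymal and endothelial markers 2 rose, *COL1A1* (1.06, from a mean of 36.3 to 75.9 CPM) and *CDH5* (0.36). Their list summed to 159, 191 and 221 CPM in MEIS2-KO, above all 6 ctrl-KO libraries. The part of these shifts in the change of *DACH1* and *TOX3* was not tested. The MEIS2 contrast was called for *TOX3* alone of the 9, where 2.57% of all genes were called and 1.39% called higher, with a value of 0.33 (SE 0.076, edgeR adjusted p = 0.00797) that had an adjusted p of 0.0697 without the libraries numbered 5.

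More of the genes differed between the 2 control conditions than in the other comparisons. In ctrl-OE against ctrl-KO, 6 genes were lower and *BTBD9* was higher, 7 of 9 beside 51.4% of all genes called, 23.9% lower and 27.5% higher. Past 0.58 there were 4, all lower, beside 9.15% of all genes. The median log2 difference was -0.50 over the 9 genes and 0.049 over all genes. *PTPRD* was at 105, 120.3 and 127 CPM in ctrl-OE and at 219, 228 and 259 CPM in ctrl-KO (log2 difference -0.997, SE 0.059, edgeR adjusted p = 3.59e-17). *TOX3* was at 30.3, 37.03 and 40.9 CPM against 77.9, 80.7 and 84.6 CPM (-1.14, SE 0.054, edgeR adjusted p = 6.18e-20). *DACH1* and *NTNG1* differed by -1.52 (SE 0.14, edgeR adjusted p = 1.54e-11) and -1.56 (SE 0.23, adjusted p = 2.24e-07). In these 4 genes no ctrl-OE library reached the lowest ctrl-KO library. The share of all tested genes that separate in this way was not counted.

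Smaller differences were found for *MDGA1* (log2 difference -0.50, SE 0.15, edgeR adjusted p = 0.00697), *MAP2K5* (-0.18, SE 0.059, adjusted p = 0.00893) and *BTBD9* (0.26, SE 0.067, adjusted p = 0.00100). The ranges of these genes overlapped between the controls, and *MAP2K5* had an adjusted p of 0.118 without the libraries numbered 2. *CRBN* (0.080, 95% interval -0.034 to 0.19) and *SKOR1* (-0.42, -1.17 to 0.32) did not pass the test. Of the 10 neural stem cell markers 8 were lower in ctrl-OE, with a median log2 difference of -0.74 over the list and -1.54 for *SOX1* and -1.39 for *SOX2*, and 4 of 7 neuron markers were lower. Cas9 form, vector and number of viruses differed together between the 2 systems, so their parts cannot be told apart, and how far the marker shift bears on the 9 genes was not tested.

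**Figure D4:**
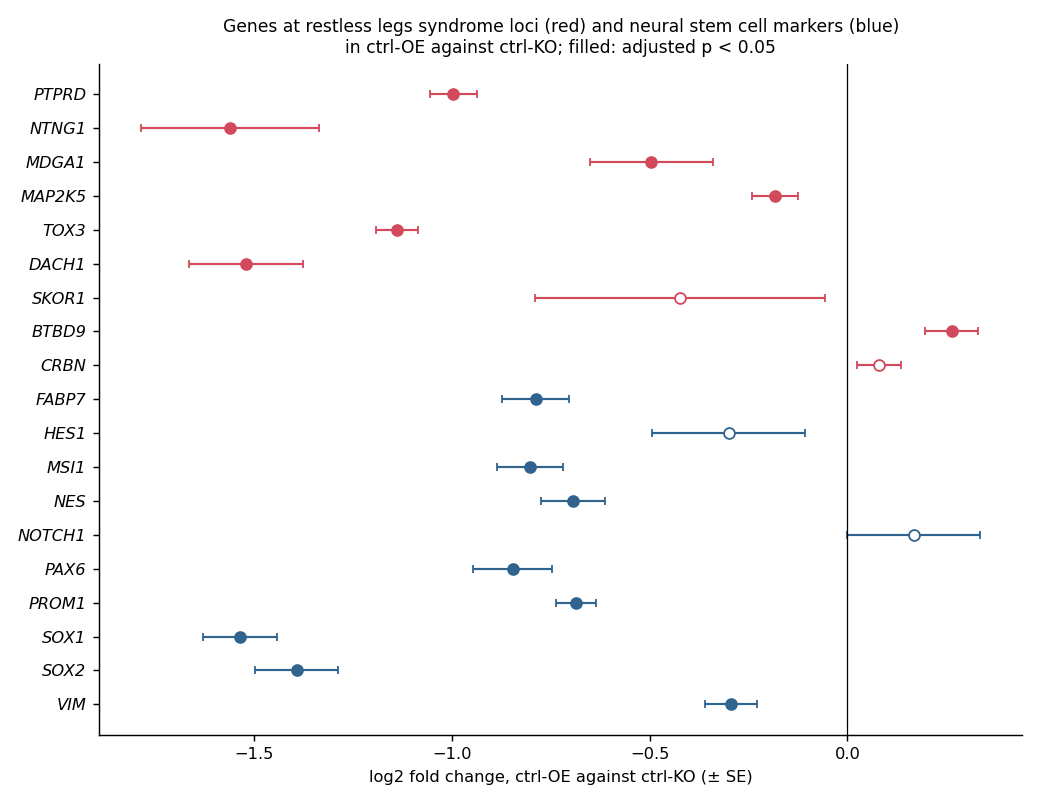
Log2 difference between ctrl-OE and ctrl-KO (horizontal axis, log2 units, bars of 1 SE) for the 9 genes in red and the 10 neural stem cell markers in blue, filled where the adjusted p was under 0.05. Of the genes 6 lie below 0 and filled, from -1.56 (*NTNG1*) to -0.18 (*MAP2K5*), and of the markers 8.

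The OE libraries can be set beside the level of the KO system. *NTNG1* in MEIS1-OE (1.74 to 2.30 CPM) overlapped its range in ctrl-KO (1.12 to 2.02 CPM). *MDGA1* in MEIS1-OE (3.98 to 5.99 CPM) lay mostly above ctrl-KO (2.14 to 4.15 CPM). *DACH1* in MEIS1-OE (5.95 to 9.66 CPM) stayed below ctrl-KO (11.9 to 15.3 CPM). These values cross the systems and carry their difference, so no test is given.

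Genes known to work with the 9 were taken from fixed lists. Of 73 listed partner genes 66 were tested, and 11 passed the test in MEIS1-OE (4 higher, 7 lower), 2 in MEIS1-KO, 2 in MEIS2-OE and 14 in MEIS2-KO (6 higher, 8 lower). The shares of all tested genes called were 9.10%, 1.46%, 1.35% and 10.0% in the same order. Their median log2 fold changes were -0.022, -0.011, 0.0025 and -0.066. None of the 11 calls in MEIS1-OE and neither of those in MEIS2-OE was kept in every alternative analysis, but 7 of the 14 in MEIS2-KO and 1 of the 2 in MEIS1-KO were.

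Among the partners of *NTNG1*, *LRRC4C*, the ligand of netrin-G1, rose in MEIS1-KO (log2 fold change 0.39, edgeR adjusted p = 0.00191) and in MEIS2-KO (0.58, adjusted p = 1.57e-06), both against the same ctrl-KO libraries. Its mean level was 13.7 CPM in ctrl-KO, 17.9 in MEIS1-KO and 20.5 in MEIS2-KO. *LRRC4*, the ligand of netrin-G2, fell in MEIS2-KO (-0.30, edgeR adjusted p = 0.00148) and in MEIS1-KO (-0.24, adjusted p = 0.0355), rose in MEIS1-OE (0.23, adjusted p = 0.0103), and had a MEIS1 contrast of 0.47 (adjusted p = 4.59e-04) and a MEIS2 contrast of 0.42 (adjusted p = 0.00332). *LRRC4C* had a MEIS2 contrast of -0.65 (edgeR adjusted p = 2.56e-04). The calls of *LRRC4* in MEIS1-OE and MEIS1-KO were lost in 4 and 5 of 12 alternative analyses. Among the partners of *MDGA1*, the paralog *MDGA2* rose in MEIS1-OE (0.35, edgeR adjusted p = 0.0309) and the neuroligins *NLGN1* and *NLGN3* fell (-0.31, adjusted p = 0.0377 and -0.24, adjusted p = 0.0476). These neuroligins also fell in MEIS2-KO (-0.32, edgeR adjusted p = 0.0200 and -0.24, adjusted p = 0.0332), where *MDGA1* itself did not pass the test. Alternative analyses lost the MEIS1-OE calls of *MDGA2*, *NLGN1* and *NLGN3* in 5, 6 and 6 of 12, and the MEIS2-KO calls of *NLGN1* and *NLGN3* in 2 and 4 of 12.

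Of 15 tested partners of *PTPRD*, the postsynaptic SLITRK proteins *SLITRK3* (log2 fold change -0.76, edgeR adjusted p = 0.0100) and *SLITRK5* (-0.15, adjusted p = 0.0100) fell in MEIS1-OE. In MEIS2-KO *SLITRK1* rose (0.31, edgeR adjusted p = 1.40e-04), *IL1RAP* rose (0.41, adjusted p = 0.0145) and *SLITRK5* fell (-0.18, adjusted p = 0.00238). Alternative analyses lost the MEIS1-OE calls of *SLITRK3* and *SLITRK5* in 2 and 3 of 12, and that of *IL1RAP* in 2 of 12. No partner of *PTPRD* passed the edgeR test in MEIS1-KO or MEIS2-OE, where 4 and 2 had an unadjusted p under 0.05 and DESeq2 called 2 and 0.

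For the nuclear factors, *TOX*, a paralog of *TOX3*, fell in MEIS2-KO (log2 fold change -0.80, edgeR adjusted p = 0.00148), from a mean of 11.3 to 6.49 CPM. Of 9 tested genes of the retinal determination network, *EYA1* fell in MEIS1-OE (-0.30, edgeR adjusted p = 0.0286) and MEIS2-OE (-0.38, adjusted p = 0.0151), calls that were lost in 4 and 5 of 12 alternative analyses. *SIX3* rose in MEIS1-OE (1.46, edgeR adjusted p = 0.0462) but had 44 counts over all 36 libraries, and 9 of 11 alternative analyses lost the call. None of the 4 tested SKI and SMAD partners of *SKOR1* passed the edgeR or DESeq2 test in the 4 comparisons with a control, with 1 at an unadjusted p under 0.05 in MEIS2-KO.

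For the signalling and ubiquitin genes, the ERK5 targets *MEF2A* in MEIS1-OE (log2 fold change -0.19, edgeR adjusted p = 0.0368) and *MEF2D* in MEIS2-KO (0.23, adjusted p = 0.0375) passed the test among 8 partners of *MAP2K5*, and were lost in 5 and 6 of 12 alternative analyses. *CUL4B*, a scaffold of the ligase that holds cereblon, rose in MEIS1-OE (0.18, edgeR adjusted p = 0.0449) and fell in MEIS2-KO (-0.18, adjusted p = 0.0462), but alternative analyses lost these calls in 9 and 6 of 12. *BTBD9* has been linked to iron handling, and of 12 tested genes of the CUL3 ligase and iron handling, *ACO1*, an iron-sensing regulator, fell in MEIS1-OE (-0.15, edgeR adjusted p = 0.0430, lost in 7 of 12). In MEIS2-KO *TFRC*, the transferrin receptor, fell (-0.23, edgeR adjusted p = 0.00639), *SLC11A2*, an iron importer, fell (-0.18, adjusted p = 0.0421, lost in 6 of 12) and *FTL*, the ferritin light chain, rose (0.26, adjusted p = 0.00337). *BTBD9* was at 22.3, 25.1 and 26.3 CPM in ctrl-KO and at 20.4, 25.5 and 28.6 CPM in MEIS2-KO, with wide overlap and a log2 fold change of 0.035 (95% interval -0.10 to 0.17).

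Genes starting within 500 kb of the 9 were examined next, as neighbours on the chromosome. There were 24 tested neighbours, with *MAP2K5* and *SKOR1* neighbouring each other, and none started in that window around *PTPRD* or *DACH1*. Neighbours were matched by symbol. The names *Y_RNA* and *SNORA8*, counted beside *BTBD9*, can be shared by several genes, so their counts may not come from this locus. In MEIS1-OE none passed the edgeR or DESeq2 test, 5 had an unadjusted p under 0.05 beside 20.1% of all genes, and the median log2 fold change was -0.028. The 5 neighbours of *MDGA1* had a median of 0.082 where *MDGA1* had 1.29, and *PRMT6*, the single neighbour of *NTNG1* at 83333 bp before its start, had 0.097 where *NTNG1* had 1.95. In MEIS2-OE none passed either test, with 4 at an unadjusted p under 0.05 beside 7.64% of all genes. In MEIS2-KO *CALML4* (log2 fold change -0.39, edgeR adjusted p = 0.00167) and *PIAS1* (-0.22, adjusted p = 0.0341, lost in 5 of 12 alternative analyses), both downstream of *SKOR1*, fell, where 5.98% of all genes were called lower, and *CALML4* also fell in MEIS1-KO (-0.35, adjusted p = 0.0171, lost in 2 of 12 alternative analyses).

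The genes whose log2 CPM most resembled each of the 9 over the 36 libraries were searched among 13464 genes with a mean of at least 1 CPM. *PTPRD* ran with *PTPRZ1* (r = 0.993), *TOX3* with *PTX3* (0.985), *DACH1* with *NNT* (0.947), *NTNG1* with *hCG_1995134* (0.891), *MAP2K5* with *ACPL2* (0.891), *CRBN* with *FEM1B* (0.866), *MDGA1* with *GPR153* (0.853) and *BTBD9* with *FMNL3* (0.837). The values share the 6 conditions, above all the difference between the OE and KO systems, and *PTPRD* and *TOX3* themselves had r = 0.961. With condition means taken out, the closest gene was *VCAN* for *PTPRD* (0.919), *SLC30A9* for *CRBN* (0.867), *TRPM3* for *TOX3* (0.835), *SULF2* for *BTBD9* (0.803), *PCCA* for *MAP2K5* (0.705), *ANXA2* for *NTNG1* (0.680) and *QPCTL* for *MDGA1* (0.650). *PTPRD* and *TOX3* then had r = 0.410 and *MDGA1* and *NTNG1* had -0.095. Libraries of one condition are not ordered, so these values describe the libraries and carry no test. Libraries with the same replicate number shared deviations in part (mean r 0.337 for number 6 and 0.16 for number 1). That sharing may enter the values with condition means taken out.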

How the data were processed

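Poly-A RNA of hNSC was sequenced by the authors in 6 conditions with 6 libraries each as stranded libraries with paired reads. Reads were aligned to hg19 with STAR and counted with HTSeq. The submitters' processing notes name STAR 2.7.0a and Trimmomatic 0.39. The gene annotation and strand setting of the counting are not given in the sources used here. The counts were deposited by the authors as raw whole numbers of reads per gene symbol.

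Genes with at least 10 summed counts (19689) were tested with edgeR 4.0.16 (R 4.3.3): TMM normalization, one fit of 6 conditions, two-sided quasi-likelihood tests and Benjamini-Hochberg adjustment over all tested genes. DESeq2 1.42.0 served as an alternative. CPM values are TMM-scaled, and likeness was measured on their log2 values (prior count 2). The procedure was tested on simulated data. Gene positions, exon lengths and guide matches came from GRCh37 with a GENCODE annotation, promoter windows from RefSeq. TMM and RLE scaling, low-count filters, the replicate number as a block, fits of the compared conditions alone and omission of each replicate number were the alternatives. Deviations from the condition means had a mean r of 0.0993 between libraries with the same replicate number (above 0.1 in 46 of 90 pairs). Between other numbers it was -0.021. By number it was 0.337 for number 6, 0.16 for number 1 and -0.00268 to 0.0463 for the rest. Some replicate numbers thus shared deviations. The main fit had no block, and the block was kept as an alternative.

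The genes and lists were chosen with earlier results of these data known. All 9 genes were named, with called partner genes and neighbours (up to 4 per list by smallest p). The biological coefficient of variation was 0.0915. Guides for activation and proteins were not analysed here. Some values of partner and similar genes are not reported here.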

Additional observations from a re-analysis of the deposited data

Results flagged for a closer look

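Within the 54 groups of 6 libraries (9 genes in 6 conditions), 3 had a library far from the rest by Dixon's criterion for 6 values. Chance flags about 1 in 20 groups. *PTPRD* was at 191 CPM in replicate 1 of MEIS2-KO, with the next library at 209 CPM. *TOX3* was at 47.8 CPM in replicate 1 of MEIS2-OE, with the next at 40.6 CPM. *CRBN* was at 52.7 CPM in replicate 3 of MEIS1-OE, with the next at 44.7 CPM.

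The effects of MEIS1-OE and MEIS2-OE differed for 3 genes when the difference itself was tested with edgeR. The difference was 1.60 on the log2 scale for *MDGA1*, 1.16 for *NTNG1* and 0.69 for *DACH1*, and each kept its call in 12 of 12 alternative analyses.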

How the results depend on the processing

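Of 20 calls of the 9 genes, 15 were kept in all 12 alternative analyses, among them those of *NTNG1*, *MDGA1* and *DACH1* in MEIS1-OE, in the MEIS1 contrast and between MEIS1-OE and MEIS2-OE. With the replicate block, the numbers of called genes were unchanged in all 9 comparisons (4 in MEIS1-OE, 0 in MEIS1-KO, 0 in MEIS2-OE, 2 in MEIS2-KO). With RLE size factors MEIS2-KO had 1 called gene, and *TOX3* lost its call in MEIS1-OE (edgeR adjusted p = 0.0576). It also lost that call in the fit of the compared conditions alone (adjusted p = 0.168). With each replicate number left out, the number of called genes was 0 to 1 in MEIS1-KO, 0 to 1 in MEIS2-OE, 0 to 2 in MEIS2-KO and 0 to 1 in the MEIS2 contrast. In MEIS1-OE *TOX3* lost its call without number 1, 2, 3 or 5, and *PTPRD* passed without number 3. Between the controls *MAP2K5* lost its call without number 2. The causes were not tested.

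Signs changed only for genes that were not called. *BTBD9* in MEIS1-OE had a log2 fold change of 0.0025 with filterByExpr and 0.00031 with the replicate block, *CRBN* 0.0034 with filterByExpr, and *TOX3* differed by -0.0013 (RLE) and -0.0014 (DESeq2) between MEIS1-OE and MEIS2-OE. With a replicate number left out, log2 fold changes ranged in MEIS1-OE from -0.031 to 0.033 (*BTBD9*) and from -0.035 to 0.032 (*CRBN*), in MEIS1-KO from -0.065 to 0.028 (*PTPRD*), -0.048 to 0.023 (*MAP2K5*), -0.41 to 0.14 (*SKOR1*) and -0.047 to 0.010 (*CRBN*), in MEIS2-OE from -0.0090 to 0.059 (*BTBD9*) and -0.092 to 0.011 (*DACH1*), in MEIS2-KO from -0.21 to 0.020 (*MDGA1*), and between MEIS1-OE and MEIS2-OE from -0.0033 to 0.034 (*TOX3*). Depth limited *SKOR1* (1 to 10 counts per library) and *NTNG1* in ctrl-OE (7 to 14 counts). The 11 partner calls kept throughout, of 37, included *LRRC4C* and *SLITRK1* in MEIS2-KO.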
